A study of Mus musculus with 6 samples.

Results

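The genes described here are 41 genes of cell division, which proliferating cells use to license and copy their DNA, to enter mitosis, to attach and separate their chromosomes and to split. They were given as a list of symbols, with no threshold on their values but with earlier results of these data known, and are 41 of the 23462 genes with a matched probe on the array. RNA came from brown adipose tissue (BAT), the heat-producing fat depot of rodents, of 3 wild type (WT) mice and 3 mice that lack the microRNA miR-22 (miR-22 KO). All 6 mice were male and, per the study's methods, 8 weeks old, and each mouse was hybridized to 1 Agilent mouse gene expression array of the second version. The deletion is global, so it is not limited to the brown adipocytes of the tissue. The temperature at which these mice were kept is not given in the sources used here.

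A cell that starts to divide first makes cyclin D1, whose kinases inactivate the retinoblastoma protein and release the E2F transcription factors. E2F then drives the genes of DNA licensing, nucleotide supply and replication, and later the MuvB complex, together with B-Myb and FOXM1, drives the genes of mitosis. In resting cells both sets are held low by the DREAM complex, which also contains MuvB. Mature brown adipocytes seldom divide, while the precursors, endothelial cells and immune cells of the depot can. In RNA of whole tissue, a different number of dividing cells and a different amount of RNA per cell cannot be told apart.

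The microRNA that the KO mice lack is shown first, with its seed, bases 2 to 8, in capitals. Its sequence is that of RefSeq, at chr11:75463772-75463793 on the plus strand of GRCm38.p6.
mmu-miR-22-3p: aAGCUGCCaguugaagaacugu

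Promoters of 3 members are shown because the 3 genes stand for different phases and were all higher in the KO mice: *Mcm6* for licensing, *Cdk1* for mitotic entry and *Top2a* for the chromosome. Each run is the 135 bases before the annotated start in RefSeq on GRCm38.p6, read on the gene's own strand. Capitals mark the CCAAT box (CCAAT), the cell cycle homology region or CHR (TTTGAA) and the E2F motif (TTTGGCGC, TTTCGCGC or TTTCCCGC), each searched on both strands. The CCAAT box is the letters to which NF-Y binds, and the CHR is the element through which MuvB contacts promoters of mitotic genes. The *Mcm6* run lies at chr1:128359706-128359840, the *Cdk1* run at chr10:69352913-69353047 and the *Top2a* run at chr11:99024190-99024324, all on the minus strand.
Mcm6: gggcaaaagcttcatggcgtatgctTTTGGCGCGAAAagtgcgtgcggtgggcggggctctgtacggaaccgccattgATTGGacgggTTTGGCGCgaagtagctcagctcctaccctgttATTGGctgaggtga
Cdk1: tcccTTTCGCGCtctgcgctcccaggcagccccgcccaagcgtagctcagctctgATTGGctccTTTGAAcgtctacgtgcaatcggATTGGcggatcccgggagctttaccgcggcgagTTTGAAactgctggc
Top2a: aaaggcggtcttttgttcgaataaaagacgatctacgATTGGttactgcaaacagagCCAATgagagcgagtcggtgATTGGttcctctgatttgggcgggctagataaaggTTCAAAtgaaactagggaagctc

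In *Mcm6* the first E2F match overlaps the next, and no CHR is present. *Cdk1* holds all 3 motifs, with CHRs that begin at positions -71 and -15 from the start site. *Top2a* holds CCAAT boxes on both strands and, at position -23, a CHR on the opposite strand. Over the longer RefSeq windows, from 250 bases before to 50 bases after the start, 34 of the 41 members had 36 windows. A CCAAT box was present in 27 of these 36 windows (75%) and in 37.4% of all 32851 windows of the same length. A CHR was present in 18 of them (50%) against 17.9% of all windows, and both motifs in 17 (47.2%) against 6.95%. An E2F motif in these letters was present in 5 (13.9%), those of *Mcm3*, *Mcm5*, *Mcm6*, *Mcm7* and *Cdk1*, against 1.85% of all windows. No window was listed for *Kif20a*, *Tpx2*, *Aurkb*, *Mcm4*, *Foxm1*, *Ccnd1* and *Ccna2*. The matches describe the letters only.

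All cell division genes of the list that passed the test were higher in BAT of the KO mice. DNA topoisomerase *Top2a* was 3.37-fold higher, thymidine kinase *Tk1* 3.22-fold, the mitotic kinase *Cdk1* 3.16-fold, cyclin D1 (*Ccnd1*) 2.48-fold, and the proliferation marker *Mki67* 2.03-fold. Each fold comes from the difference between the mean log2 signals of the KO and the WT mice, for *Ccnd1* with KO mice 2 and 3 only. The size of the first 3 depended on the background correction: with normexp their log2 differences were 0.94 for *Top2a*, 0.80 for *Tk1* and 0.99 for *Cdk1*, in place of 1.75, 1.69 and 1.66. With limma and an unadjusted p under 0.05, the threshold of the study's methods, 16 of the 36 members that could be tested rose (44.4%) and 0 fell. Over all 14711 genes tested, 10% were higher at that threshold and 8.82% lower. These genes were of any signal level and were not matched to the members in brightness. With no filter on dim probes, 7.85% of all genes were higher and 4.22% lower, and their median log2 difference was 0.14. SAM, the tool of the study's methods, also called 16 members higher and 0 lower, and the methods' t-test called 14 higher and 1 lower (*Mcm7*). The 16 members rose by 0.45 to 1.75 on the log2 scale.

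After Benjamini-Hochberg adjustment over all genes tested, 0 of the 36 members passed with limma, where 0.184% of all genes did. The lowest adjusted p of a member was 0.0595, for *Ccnd1*. With SAM and with the methods' t-test the adjusted count was also 0, with 3 under limma's eBayes with trend and robust (*Ccnd1*, *Rrm2* and *Top2a*). The genes said below to have risen or fallen are therefore those past the unadjusted threshold. In sign, 31 of the 36 differences were positive and 5 negative (*Mcm7*, *Ccne1*, *Ccnb2*, *Ube2c* and *Cenpa*). The median log2 difference was 0.60 over the 36 members and -0.028 over all genes tested.

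Values are scaled log2 signals throughout, the log2 of a spot's intensity over the 75th percentile of its array, so that 0 is the level of that percentile. They compare mice for 1 gene and not 1 gene with another, and are listed in the order of mice 1, 2 and 3. Of the 36 members tested, 29 were well above background on all 6 arrays, and 13 of these were among the 16 that rose. The other 3, *Cenpf*, *Ndc80* and *Tpx2*, were not above background on every array. No member entered the test through the KO arrays alone, but 4 (*Ccnb1*, *Cenpe*, *Cenpf* and *Ndc80*) were above background on fewer than 3 WT arrays and needed a KO array to enter. The 5 members that could not be tested (*Bub1*, *Bub1b*, *Ttk*, *Nuf2* and *Kif11*) were above background on no WT array.

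**Figure D1:**
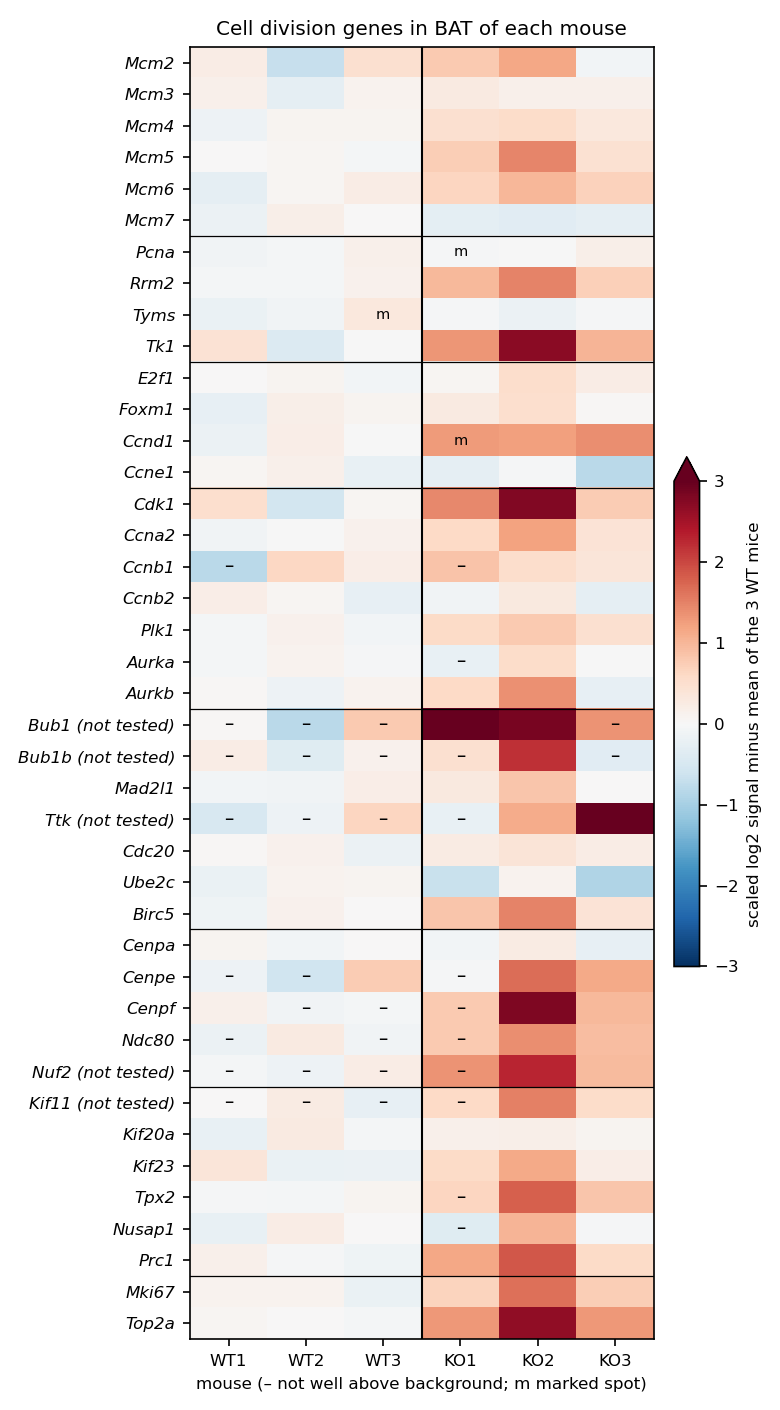
Scaled log2 signal of each of the 41 members in each mouse, as the difference from the mean of the 3 WT mice (colour, clipped at 3), with members in rows ordered by role and mice in columns; a dash marks a spot not well above background and m a spot marked by the scanner software. Most cells of KO mouse 2 are the highest of their row, and the rows of *Mcm7*, *Ccne1* and *Ube2c* are not higher in the KO mice.

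Cyclins and transcription factors of G1 come first in the cycle. Cyclin D1, encoded by *Ccnd1*, joins the signals from growth factors to the cycle. Its scaled log2 signal was 1.08, 1.44 and 1.22 in WT mice 1, 2 and 3, and 2.47 and 2.65 in KO mice 2 and 3. The spot of KO mouse 1 was marked by the software and left out of the fit, and read 2.52. Each KO value, the marked one included, was above each WT value, and the KO mice lay close together. *Ccnd1* rose by 1.31 (log2; SE, the standard error from limma, 0.18; adjusted p = 0.0595), the smallest p of any member. Its E-type counterpart *Ccne1*, which acts with CDK2 at the start of S phase, had a difference of -0.37 (SE 0.23). *E2f1* and *Foxm1*, the transcription factors of the S phase and mitotic genes, each had a difference of 0.28, with SEs of 0.16 and 0.19. Their groups overlapped, and of the 4 genes of G1 only *Ccnd1* passed the unadjusted threshold.

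The MCM complex is the helicase that is loaded on origins in G1 and unwinds DNA in S phase, with its subunits used together. Of its 6 subunits 3 rose and 0 fell. *Mcm6* was at -3.13, -2.80 and -2.63 in WT mice against -2.21, -1.85 and -2.16 in KO mice, a rise of 0.78 (SE 0.18, adjusted p = 0.109). *Mcm5* was at -3.74, -3.70 and -3.82 in WT mice against -3.0, -2.29 and -3.29 in KO mice, a rise of 0.89 (SE 0.26, adjusted p = 0.152). For both, the lowest KO mouse lay above the highest WT mouse. *Mcm4* had WT values of -0.99, -0.74 and -0.76 and KO values of -0.35, -0.28 and -0.51, again without overlap, and rose by 0.45 (SE 0.14, adjusted p = 0.176), but did not pass the unadjusted threshold without WT mouse 1 (difference 0.37). *Mcm7* went the other way, at 0.42, 0.77 and 0.61 in WT mice against 0.31, 0.25 and 0.33 in KO mice. Its 3 KO values were all below the WT values, but its difference of -0.30 (SE 0.14, adjusted p = 0.311) did not pass the unadjusted threshold. A second *Mcm7* probe had a difference of 0.26 (SE 0.26), so the probes of this gene differed in sign. *Mcm2* and *Mcm3* had differences of 0.62 (SE 0.41) and 0.19 (SE 0.16), with overlapping groups.

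Nucleotide supply and the replication clamp were represented by 4 genes, of which 2 rose. *Rrm2*, the subunit of ribonucleotide reductase that cells make in S phase, was at -2.99, -2.99 and -2.79 in WT mice against -1.95, -1.45 and -2.22 in KO mice. Thymidine kinase 1, the salvage enzyme encoded by *Tk1*, was at -4.90, -5.74 and -5.33 in WT mice against -4.00, -2.61 and -4.30 in KO mice. Neither gene had overlapping groups, and KO mouse 2 was the highest for both. *Rrm2* rose by 1.05 (SE 0.22, adjusted p = 0.0857) and *Tk1* by 1.69 (SE 0.45, adjusted p = 0.136). A second *Tk1* probe had a difference of 1.12 (SE 0.45). *Pcna*, the sliding clamp of the DNA polymerases, was at 3.15, 3.18 and 3.40 in WT mice against 3.24 and 3.43 in KO mice 2 and 3, with a marked spot that read 3.21 in KO mouse 1. Those values overlapped, and the difference was 0.089 (SE 0.17, adjusted p = 0.791). *Tyms*, thymidylate synthase, had a difference of 0.074 (SE 0.15), with a marked spot left out in WT mouse 3. The data did not distinguish the groups in *Pcna* and *Tyms*.

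**Figure D2:**
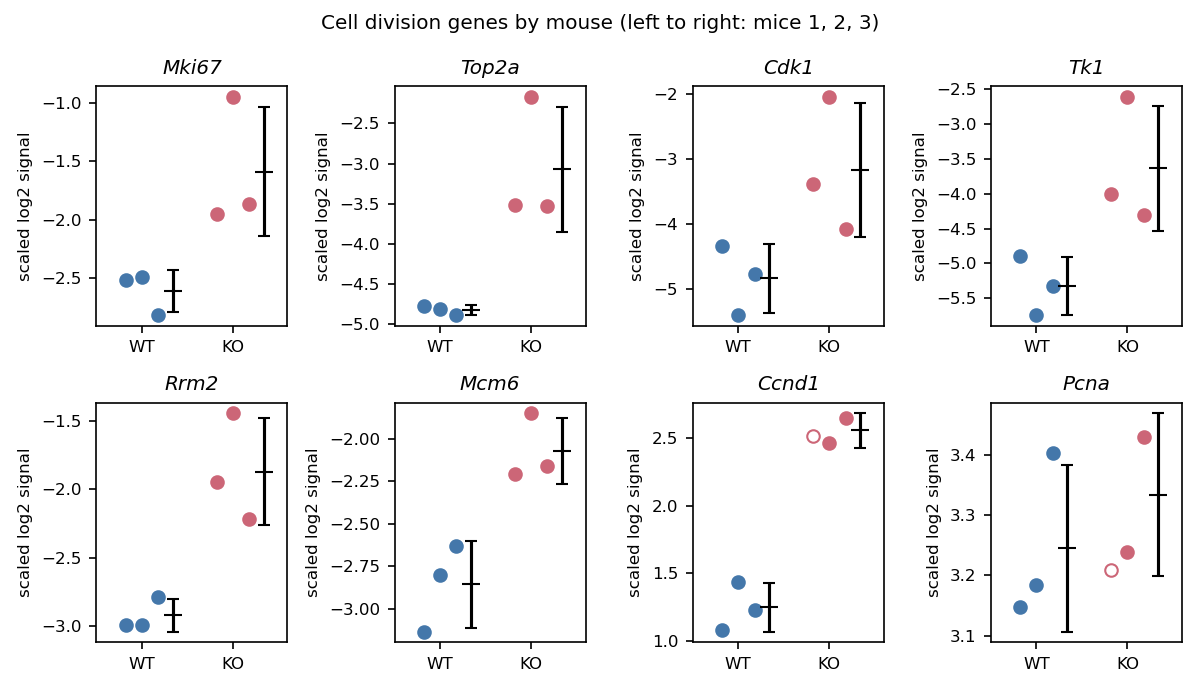
Scaled log2 signal (vertical axes, each with its own range) of *Mki67*, *Top2a*, *Cdk1*, *Tk1*, *Rrm2*, *Mcm6*, *Ccnd1* and *Pcna* in each WT and KO mouse; bars give the mean and SD of the unmarked values (n = 3, or 2 where a spot was marked), and an open circle is a marked spot. KO mouse 2 is the highest in 6 of the 8 panels, in *Ccnd1* all KO mice lie together above the WT mice, and in *Pcna* the groups overlap.

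Cyclins and kinases of mitotic entry were represented by 7 genes, all tested, of which 3 rose. *Cdk1*, the kinase that starts mitosis, was at -4.33, -5.39 and -4.77 in WT mice against -3.38, -2.05 and -4.07 in KO mice. The KO values spanned more than the difference between the group means, but the lowest of them, KO mouse 3, was above the highest WT mouse. *Cdk1* rose by 1.66 (SE 0.52, adjusted p = 0.173), but did not pass the unadjusted threshold without WT mouse 2 (1.38), with the slide row as a block (1.6) or with the methods' t-test. Without KO mouse 2 its difference was 1.10. Cyclin A2 (*Ccna2*), its partner in S phase and early mitosis, was at -4.26, -4.17 and -4.03 in WT mice against -3.57, -2.94 and -3.74 in KO mice, and rose by 0.74 (SE 0.23, adjusted p = 0.165). Polo-like kinase 1 (*Plk1*), which acts on centrosomes and kinetochores, was at -4.93, -4.76 and -4.96 in WT mice against -4.31, -4.09 and -4.40 in KO mice. Its groups did not overlap and its KO mice lay close together, with a rise of 0.62 (SE 0.14, adjusted p = 0.108). With normexp background correction the difference of *Plk1* was 0.14 and did not pass the unadjusted threshold. The B-type cyclins *Ccnb1* and *Ccnb2*, the activators of CDK1 in mitosis, and the Aurora kinases *Aurka* and *Aurkb* had differences from -0.032 to 0.58 with overlapping groups.

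In the group of the spindle checkpoint, the anaphase promoting complex and the chromosomal passenger complex, 4 of 7 genes could be tested and 1 rose. This was *Birc5*, survivin, a passenger protein, at -2.07, -1.80 and -1.93 in WT mice against -1.09, -0.44 and -1.53 in KO mice. The groups did not overlap, and *Birc5* rose by 0.91 (SE 0.27, adjusted p = 0.161), with a difference of 1.46 (SE 0.57) on a second probe. *Cdc20*, an activator of the complex, was at -2.10, -2.0 and -2.31 in WT mice against -1.89, -1.76 and -1.92 in KO mice. Here too the KO values were all above the WT values, but the difference of 0.28 (SE 0.14, adjusted p = 0.340) did not pass the unadjusted threshold. *Ube2c*, the ubiquitin-conjugating enzyme of the complex, had the most negative difference of any member, -0.49 (SE 0.27, adjusted p = 0.364), with overlapping groups. *Mad2l1*, a checkpoint protein, had a difference of 0.38 (SE 0.23).

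The checkpoint genes *Bub1*, *Bub1b* and *Ttk* were too dim in the WT mice to be tested. *Bub1* was above background in KO mice 1 and 2, *Bub1b* in KO mouse 2 and *Ttk* in KO mice 2 and 3. For such genes a floored fold was computed from the mean of all 3 KO values against the mean of the WT values. Each WT value was first raised to the lowest signal counted as above background on its array, where it was under that. KO values not above background were taken as read, so the floored fold is not a strict lower bound. The floored fold was 2.59 for *Bub1* and 2.17 for *Ttk*, each with 2 of 3 KO arrays and no WT array above background. In *Ttk* the KO value that was highest, -2.90 in KO mouse 3, stood far from the -6.60 of KO mouse 1, which lay within the range of the WT mice. Floored folds under 1 were not kept. That of *Bub1b*, with 1 KO array and no WT array above background, was under 1, so no value is given for it.

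Centromere and kinetochore genes build the plate on which microtubules hold a chromosome. *Ndc80*, which encodes the microtubule-binding subunit, was at -6.32, -5.87 and -6.25 in WT mice against -5.35, -4.75 and -5.22 in KO mice, and rose by 1.04 (SE 0.21, adjusted p = 0.0847). *Cenpf*, a kinetochore protein of late S phase and mitosis, was at -6.12, -6.37 and -6.35 in WT mice against -5.50, -3.49 and -5.30 in KO mice, and rose by 1.51 (SE 0.51, adjusted p = 0.193), but did not pass the unadjusted threshold without WT mouse 2 (1.47), with the slide row as a block (1.58) or with the methods' t-test. Both genes had all KO values above all WT values, and both were near the background, with only WT mouse 2 (*Ndc80*) or WT mouse 1 (*Cenpf*), and KO mice 2 and 3, above it. The floored fold of *Nuf2*, the partner of NDC80, was 2.14, with 2 KO arrays and no WT array above background. *Cenpe*, a kinesin of the kinetochore, had a difference of 0.92 (SE 0.50). *Cenpa*, the histone variant of centromeres, was above background in all mice and had a difference of -0.030 (SE 0.17).

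Spindle and cytokinesis proteins included 2 that rose among the 5 tested. *Prc1*, which bundles the microtubules of the central spindle, was at -5.09, -5.26 and -5.35 in WT mice against -4.07, -3.37 and -4.66 in KO mice, a rise of 1.21 (SE 0.31, adjusted p = 0.129). *Tpx2*, a spindle assembly factor that activates Aurora A, was at -5.55, -5.57 and -5.42 in WT mice against -4.88, -3.73 and -4.69 in KO mice, a rise of 1.08 (SE 0.30, adjusted p = 0.141). Both were without overlap between the groups and highest in KO mouse 2, and the *Tpx2* value of KO mouse 1 was not above the background of its array. *Kif23*, a motor of the central spindle, had a difference of 0.63 (SE 0.28, adjusted p = 0.282), and *Kif20a* and *Nusap1* had 0.14 and 0.21, with overlapping groups. The motor *Kif11*, which pushes spindle poles apart, was above background in KO mice 2 and 3 alone. Its floored fold over all KO mice was 1.62.

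Both chromosome proteins on the list rose. *Mki67*, which encodes the marker Ki-67 that coats mitotic chromosomes, was at -2.52, -2.49 and -2.82 in WT mice against -1.95, -0.95 and -1.87 in KO mice. *Top2a*, which untangles sister chromatids, was at -4.77, -4.81 and -4.88 in WT mice against -3.52, -2.17 and -3.52 in KO mice. In each gene the 3 WT mice lay close together, all KO mice were above them, and KO mouse 2 was the highest by over 0.9 on the log2 scale. *Mki67* rose by 1.02 (SE 0.28, adjusted p = 0.142) and *Top2a* by 1.75 (SE 0.36, adjusted p = 0.0888). A second *Top2a* probe was above background in 2 mice only, and was not tested.

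**Figure D3:**
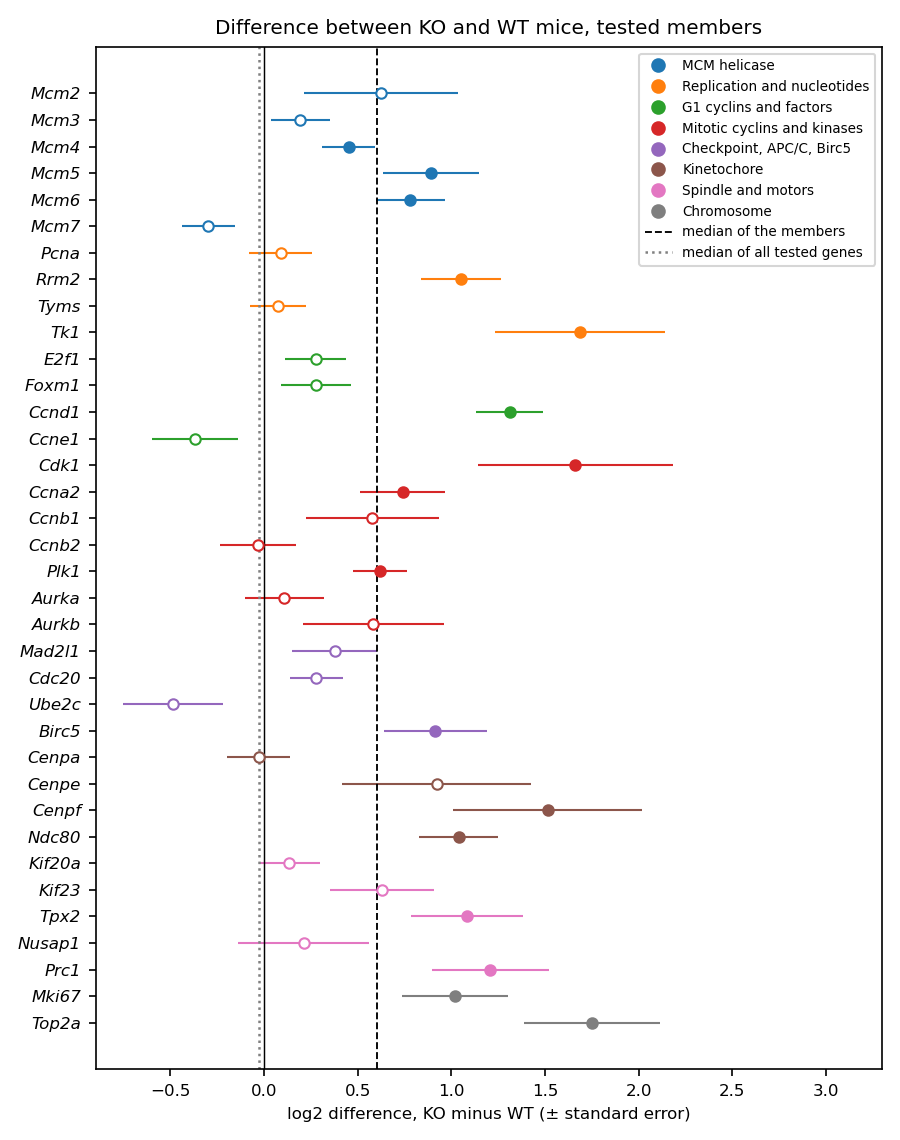
Log2 difference between KO and WT mice (horizontal axis) for the 36 members tested, coloured by role, with bars of 1 standard error from limma; filled points passed the unadjusted threshold. The dashed line is the median of the members, 0.60, the dotted line that of all genes tested, -0.028, and all 16 filled points lie at or above 0.45.

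Spread between mice was read from the 33 tested members with 3 unmarked values in each group. All 3 KO mice lay above all 3 WT mice for 16 of them (48.5%), where 14.2% of the 11576 genes with such values did. The KO mice lay below for 1, *Mcm7*, where 14.7% of all such genes did, and the groups overlapped for the other 16. Where a gene had several probes, the others were compared with the one used. Of 10 such probes that could be tested, 9 had the sign of the first, with *Mcm7* the exception.

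The KO mice were not alike in size. Taken as the median deviation from the WT mean over the 36 members, the WT mice stood at -0.050, 0.054 and 0.0031 and the KO mice at 0.57, 1.01 and 0.28. The WT mean includes each WT mouse and no KO mouse, which draws the WT values toward it, so the spreads of the groups are not compared by these values. KO mouse 2 was the highest of the 6 mice for 27 of the 36 members and for 15 of the 16 that rose. KO mice 1 and 3 were both above all WT mice for all 16, with marked spots kept. The 16 had been called with these same mice, so this was nearly fixed by their choice. For *Cenpf*, *Ndc80* and *Tpx2* the value of KO mouse 1 was not above background. When KO mouse 2 was left out, 13 of 31 members were higher at the unadjusted threshold, where 9.29% of all genes were, and the median difference was 0.36. Of the 16 members, 13 could be tested without that mouse, and *Ccnd1*, *Cenpf* and *Ndc80* could not. All 13 remained higher, but they had been called with the remaining mice as well.

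Other cell division genes, from lists drawn up by hand, numbered 124 tested of 155, and were read against the same background of 10% higher and 8.82% lower. Of these, 29 (23.4%) were higher and 8 (6.45%) lower in the KO mice, with a median difference of 0.22. Higher were 15 of 56 further genes of mitosis (median 0.35) and 9 of 41 of replication (median 0.20). Among them *Pola2*, a subunit of DNA polymerase alpha, was at -3.01, -3.74 and -2.95 in WT mice against -1.73, -1.62 and -1.67 in KO mice, a rise of 1.56 (SE 0.23, adjusted p = 0.0557). *Spc25*, of the same complex as *Ndc80* and *Nuf2*, rose by 1.71 (SE 0.31, adjusted p = 0.0743), and *Racgap1*, which acts with *Kif23* in cytokinesis, by 0.78 (SE 0.17, adjusted p = 0.0957). In *Pola2*, as in *Ccnd1*, the KO mice lay close together.

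Brakes of the cycle and the remaining genes of G1 had medians of -0.036 and -0.024. The 3 other cell division genes with the smallest p among those that fell were *Rb1*, the retinoblastoma protein (-0.42, SE 0.13, adjusted p = 0.181), *Cdkn2c*, an inhibitor of the cyclin D kinases (-0.49, SE 0.16, adjusted p = 0.190), and *Lin52*, a subunit of MuvB (-0.40, SE 0.14, adjusted p = 0.205). Of 11 brakes tested 3 fell and 3 rose (27.3% each), and of 16 further genes of G1 1 fell (6.25%) and 2 rose (12.5%). Over all genes tested, 8.82% fell and 10% rose, so the G1 counts were near that share. Named after their values were seen, the other brakes called were *Ccng2*, which fell, and *Rbl1*, *Cdkn2b* and *Trp53*, which rose, and the genes of G1 that rose were *Myc* and *Ccnd2*. Named in the same way, *Rrm1*, the constant partner of *Rrm2* in ribonucleotide reductase, fell by 0.38 (SE 0.14, adjusted p = 0.217).

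**Figure D4:**
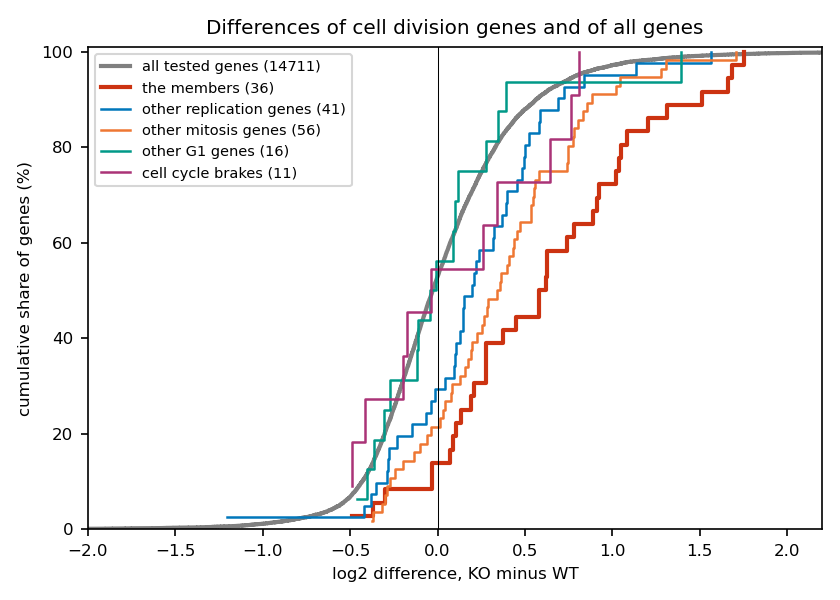
Cumulative share of genes (vertical axis, percent) by log2 difference between KO and WT mice (horizontal axis) for all 14711 genes tested, the 36 members and the 4 lists of other cell division genes. At its median, 0.60, the curve of the members lies furthest to the right, with the medians of mitosis (0.35) and replication (0.20) between it and that of all genes, and those of the brakes and G1 genes cross the curve of all genes.

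Cell type markers, background and slide position also differed between the mice, some of them little. Skeletal muscle markers, 14 genes, had means of 2.73, 1.92 and -4.75 in WT mice against 0.43, 3.64 and 1.86 in KO mice, so that KO mouse 2 had the most muscle RNA and WT mouse 3 the least by far. In the median deviation of the members, WT mouse 3 stood at 0.0031 and KO mouse 2 at 1.01, the highest. WT mouse 3 is part of the WT mean from which that deviation is taken, which draws its value toward that mean. Brown adipocyte markers, *Ucp1* among them, were above background and ranged from 2.78 to 3.05 in the WT mice and from 2.37 to 2.86 in the KO mice, lowest in KO mouse 2. Adipocyte precursor markers (11 genes) ranged from 1.12 to 1.35 and from 1.16 to 1.41, and endothelial markers (9 of 10 genes) from 1.25 to 1.54 and from 1.33 to 1.44. Macrophage markers (11 genes) ranged from 0.85 to 1.03 in the WT and from 1.0 to 1.29 in the KO mice, again highest in KO mouse 2. Lymphocyte markers (9 of 12 genes) ranged from -4.15 to -3.40 and from -3.52 to -3.39, with *Cd79a* and *Ms4a1* among those below background on at least 4 arrays. Neutrophil markers (6 of 10 genes) ranged from -2.71 to -2.13 and from -2.52 to -1.80, with the granule genes *Elane*, *Ngp*, *Camp* and *Ltf* below background on at least 4 arrays. Of the 5 tested, 2 were higher (40%) and 0 lower, beside 10% and 8.82% of all genes. *Prtn3*, also a granule gene, was at -5.87, -5.86 and -4.49 in WT mice against -4.11, -4.40 and -3.66 in KO mice. *S100a8* and *S100a9* had lower means in the KO mice. Erythroid markers (6 of 10) ranged from -1.95 to -1.73 and from -1.93 to -1.54. Schwann cell markers (7 genes) ranged from 0.40 to 0.88 in the WT and from -0.017 to 0.42 in the KO mice. Beside the same shares of all genes, 2 of 10 macrophage markers tested (20%) and 1 of 9 lymphocyte markers (11.1%) were higher and 0 lower. Lower were 2 of 7 Schwann cell markers (28.6%) and 1 of 6 brown adipocyte markers (16.7%), with 0 higher. Of the tested precursor, erythroid, endothelial and muscle markers, 0 were called in either direction. What part any of these cells had in the values of the cell division genes was not tested.

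The background differed between arrays. The lowest signal counted as above background was -4.60 in KO mouse 1 and between -6.26 and -5.75 in the other mice, and 55.8% of the spots of KO mouse 1 were above background against 62.3 to 66.5% in the others. When all signals under -4.60 were set to that level, 11 members were higher, where 9.24% of all genes were, and the median difference was 0.32. Of the 16 members that had risen, 10 remained so, and *Tk1*, *Cdk1*, *Cenpf*, *Ndc80*, *Tpx2* and *Prc1* no longer passed. *Ndc80* had no value above that level in any mouse. With normexp 12 of the 16 remained higher, and *Mcm4* (0.34), *Plk1* (0.14), *Cenpf* (0.43) and *Ndc80* (0.074) no longer passed. Differences also shrank by over 1.5 times with normexp in *Mcm5* (0.50), *Ccna2* (0.42), *Tpx2* (0.43) and *Prc1* (0.59).

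Arrays also differed in their place on the slide. All arrays lay on 1 slide and were scanned together, WT mice 1 and 2 in the first row and WT mouse 3 with the KO mice in the second, so a fit with the row as a block sets the KO mice against WT mouse 3 alone. With that block 8 of 35 members were higher, where 6.29% of all genes were, and the median difference was 0.45. These 8 were *Rrm2*, *Tk1*, *Ccnd1*, *Plk1*, *Ndc80*, *Prc1*, *Mki67* and *Top2a*, and all 16 kept a positive difference. Each gene's value against 1 WT mouse is less precise than against 3.

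**Figure D5:**
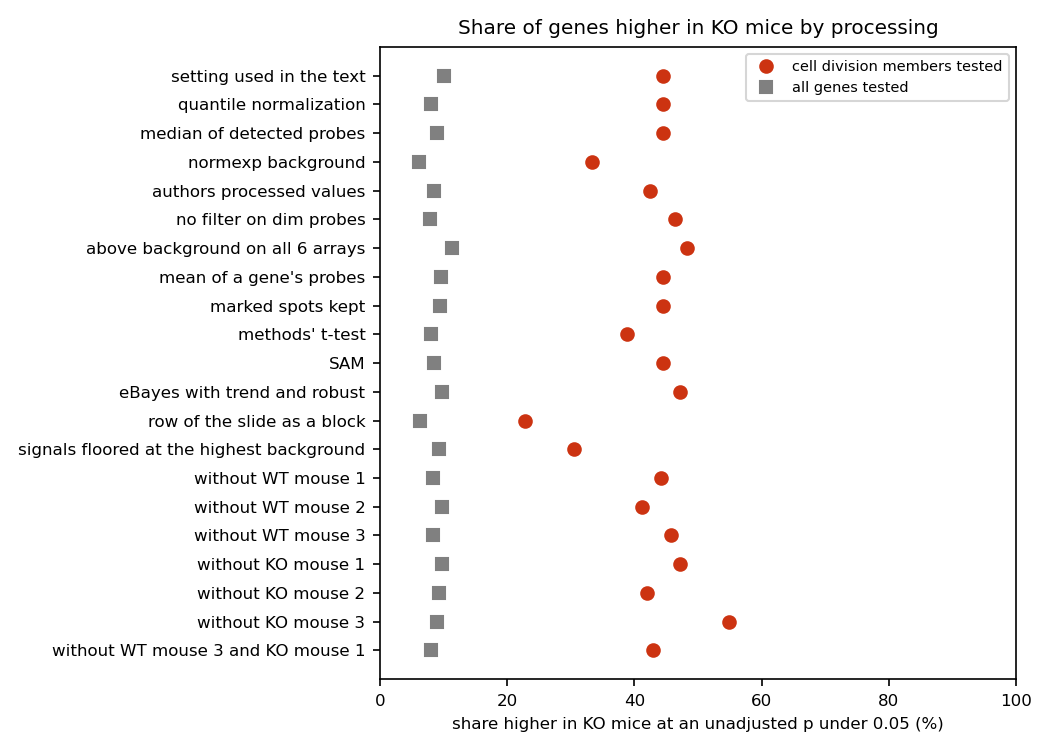
Share of genes higher in the KO mice at an unadjusted p under 0.05 (horizontal axis, percent) for the cell division members tested (circles) and for all genes tested (squares), under each way of processing (rows). The members' share was 44.4% in the setting used in the text, lowest with the slide row as a block, and above that of all genes in each row.

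The transcript that hosts miR-22, *Mir22hg*, was at 1.2, 1.69 and 1.22 in WT mice against 2.02, 2.11 and 2.23 in KO mice, which differed by 0.75 (SE 0.18, adjusted p = 0.108). Where its probe lies relative to the deleted stretch is not given in the sources used here, so it does not check the deletion, and mature miR-22 was not measured here.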

How the data were processed

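BAT RNA of the 3 WT and the 3 KO mice was labelled with Cy3 and hybridized separately. What the authors deposited, per the file headers, is the intensity of each of 62976 spots from Agilent Feature Extraction (10.7 in the processing notes, 11.5.1.1 in the headers), background-subtracted by the scanner software, and processed log2 values of 27497 probes, whose normalization is not given in the sources used here. Groups are those of the labels.

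Intensities were scaled to the 75th percentile of each array, over spots that are no controls, and log2 was taken. Spots marked as not uniform or as population outliers (4.87 to 17.1% per array) were left out. No spot was saturated. Of 56605 probes, 33767 (59.7%) were matched to 1 gene through the RefSeq accession (GRCm38.p6). Testing a probe required 3 or more arrays well above background and 2 or more unmarked values per group, and the brightest such probe stood for its gene. The 41 members had 61 probes, 17 of them more than 1. KO and WT mice were compared by limma 3.58.1 (lmFit, eBayes) in R 4.3.3, two-sided, over 14711 genes, with Benjamini-Hochberg adjustment over all of them. The number of arrays limits the precision, given as standard errors. Marker list means used all spots, marked ones included, of genes above background on at least 3 arrays. The fits were checked on simulated data. Scaling, the background filter and the matching and choice of probes were not part of that check.

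Values of every mouse are given for members past the unadjusted threshold, for tested members whose groups did not overlap, and for *Mki67*, *Top2a*, *Cdk1*, *Pcna* and *Ccnd1*. The 3 other cell division genes with the smallest p in each direction were named. The members and lists were chosen with earlier results of these data known. As alternatives, arrays were quantile normalized, scaled to the median of detected probes, corrected with normexp (offset 50, on the median spot signal), or replaced by the authors' processed values. Dim probes were kept, or signal above background on all 6 arrays was required. Probes of a gene were averaged, and marked spots were kept. The methods' t-test, SAM, eBayes with trend and robust and the slide row as a block were tried, and each mouse was left out. Setting a common floor and leaving out both arrays with the most marked spots were chosen after seeing the data.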

Additional observations from a re-analysis of the deposited data

How the results depend on the processing

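The rise of the cell division genes kept its direction under all 20 alternatives, with a median difference of 0.25 (normexp) to 0.68 (without KO mouse 3). Of the median, 0.32 came with the common floor and 0.36 without KO mouse 2. The count of members higher, 16 of 36, lay between 11 of 36 (common floor) and 19 of 41 (no filter) except with the slide row as a block, where it was 8 of 35. Over all genes the shares higher were 10%, 9.24%, 7.85% and 6.29% in these 4 settings. With no filter the 5 members above background on no WT array entered too, so the 19 is not a count over the same members. With each mouse left out, there were 13 to 17 members higher and 0 to 1 lower, of 31 to 36 tested, with 0 past the adjusted threshold each time. In those fits 8.34 to 9.76% of all genes were higher. The count of members lower, 0, became 2 with normexp (*Ccne1* and *Ube2c*) and 1 with the authors' processed values (*Ccne1*), and 1 (*Mcm7*) with the methods' t-test, with trend and robust, with the common floor and without WT mouse 1, and 1 (*Ube2c*) without KO mouse 2. The count past the adjusted threshold, 0, became 1 (*Ccnd1*) with the authors' processed values and with marked spots kept, 2 (*Ccnd1* and *Top2a*) with a filter of all 6 arrays and 3 with trend and robust. Other cell division genes lower, 8, became 4 with no filter, 5 with the mean of a gene's probes, 3 with SAM, 3 with the row block, 0 without both arrays with the most marked spots, and 3 to 6 with each mouse left out, but 12 (beside 20 higher, of 117) with the authors' processed values, 11 (beside 23 higher) with quantile normalization and 10 (beside 28 higher) with the common floor. Those higher, 29 of 124, became 19 of 124 with the methods' t-test, where 8.04% of all genes were higher. With the row block they were 12 of 111, where 6.29% of all genes were higher. With each mouse left out they were 16 to 31. The fewest, 16 of 118, came without KO mouse 2, where 9.29% of all genes were higher. The difference of *Pcna* turned to -0.0702 with the row block, and no other named member changed sign. *Mki67*, *Top2a*, *Rrm2* and *Ccnd1* stayed past the unadjusted threshold under every alternative that could test them. Genes near background depended most on its treatment, with *Ndc80* at 0.074 and *Plk1* at 0.14 under normexp, both no longer past the unadjusted threshold. With no filter the median of all genes moved to 0.14, beside 0.63 for the members. No paired analysis was possible because the labels give no numbers shared between the groups.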
